A study of Oryctolagus cuniculus with 16 samples.

Results

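A set of 9 genes of B cells and their bone marrow precursors was analyzed in total RNA-seq data from rabbit femoral heads. The members were the genes whose symbol in the gene count table equals *MS4A1*, *CD22*, *CD79B*, *PAX5*, *EBF1*, *BLNK*, *RAG1*, *RAG2* or *DNTT*, and all 9 were found among the 20255 genes listed. The femoral heads of 5 Perthes rabbits and of 3 controls, labelled wild type, gave 1 library each. Perthes disease is an osteonecrosis of the growing femoral head, and the model was made surgically in 8-week-old rabbits by tying off the femoral neck with a suture and cutting the ligamentum teres, which obstructs blood flow to the epiphysis. The controls are described as healthy, and neither a sham operation, the age of the controls nor the interval between surgery and sampling is given in the sources used here. Each library is a mixture of the cells of the femoral head, and the labels do not say whether a rabbit contributed 1 or both hips.

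B cells arise in the bone marrow from lymphoid progenitors. The transcription factors EBF1 and PAX5 commit a progenitor to the B lineage, RAG1 and RAG2 cut the immunoglobulin gene segments, and terminal deoxynucleotidyl transferase, encoded by *DNTT*, adds nucleotides at the joints. The finished receptor signals through CD79B and the adaptor BLNK, CD22 restrains that signal, and MS4A1, also known as CD20, is carried by maturing and mature B cells. Several of these genes are known to be expressed outside the B lineage. BLNK is found in macrophages, CD22 in some other leukocytes, EBF1 in marrow stromal cells and adipocytes, and RAG1, RAG2 and DNTT also in T cell precursors of the thymus.

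The libraries held between 26757087 and 29461482 counts, so that 1 count corresponded to 0.0333 to 0.0375 CPM, where CPM is the count per 1000000 counts, scaled by the TMM method of edgeR. The tissue label was checked against marker genes. Summed chondrocyte genes ranged from 39930 to 155800 CPM and summed osteoblast and osteocyte genes from 46370 to 145700 CPM over the Perthes rabbits, and the controls lay within both ranges. The most abundant of these genes were *COL2A1*, the main cartilage collagen, and *COL1A1*, the main bone collagen. Summed skeletal muscle genes reached at most 9.55 CPM in any library. The first principal component of the log2 CPM values held 56.1% of the variance and separated the controls, at 49.0 to 97.0, from the Perthes rabbits, at -93.7 to 5.21, and Perthes rabbit 4 stood apart at 78.4 on the second component, where the other rabbits lay between -27.5 and 7.51. Sequencing batches are not given in the sources used here, and in bulk tissue fewer cells of a type cannot be told apart from less RNA per cell.

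Transcripts of *MS4A1* were lower in Perthes rabbits, whereas the other 8 genes did not pass the test. In edgeR's quasi-likelihood test, fitted over 15305 genes with Benjamini-Hochberg adjustment, 1 of the 9 members was lower in Perthes rabbits at an adjusted p below 0.05 and 0 were higher. Among all genes tested, 8.86% were called lower and 6.21% higher, 15.1% in all. At an unadjusted p below 0.05 in the edgeR test, 2 members were lower and 1 higher, against 16.6% and 15.3% of all genes. The single call was *MS4A1*, whose mean was 4.08-fold higher in controls. A total of 6 members had a negative log2 fold change (*MS4A1*, *CD79B*, *PAX5*, *RAG1*, *RAG2* and *DNTT*) and 3 a positive one (*CD22*, *EBF1* and *BLNK*), while 48.4% of all genes tested were negative. DESeq2, run as an alternative, also called *CD79B* lower and *BLNK* higher. It called more genes throughout the table, with 1917 lower and 1700 higher of 20249 genes fitted. For 6 members the 95% interval of the log2 fold change included 0, and a p above the threshold does not show that a gene was unaltered.

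**Figure D1:**
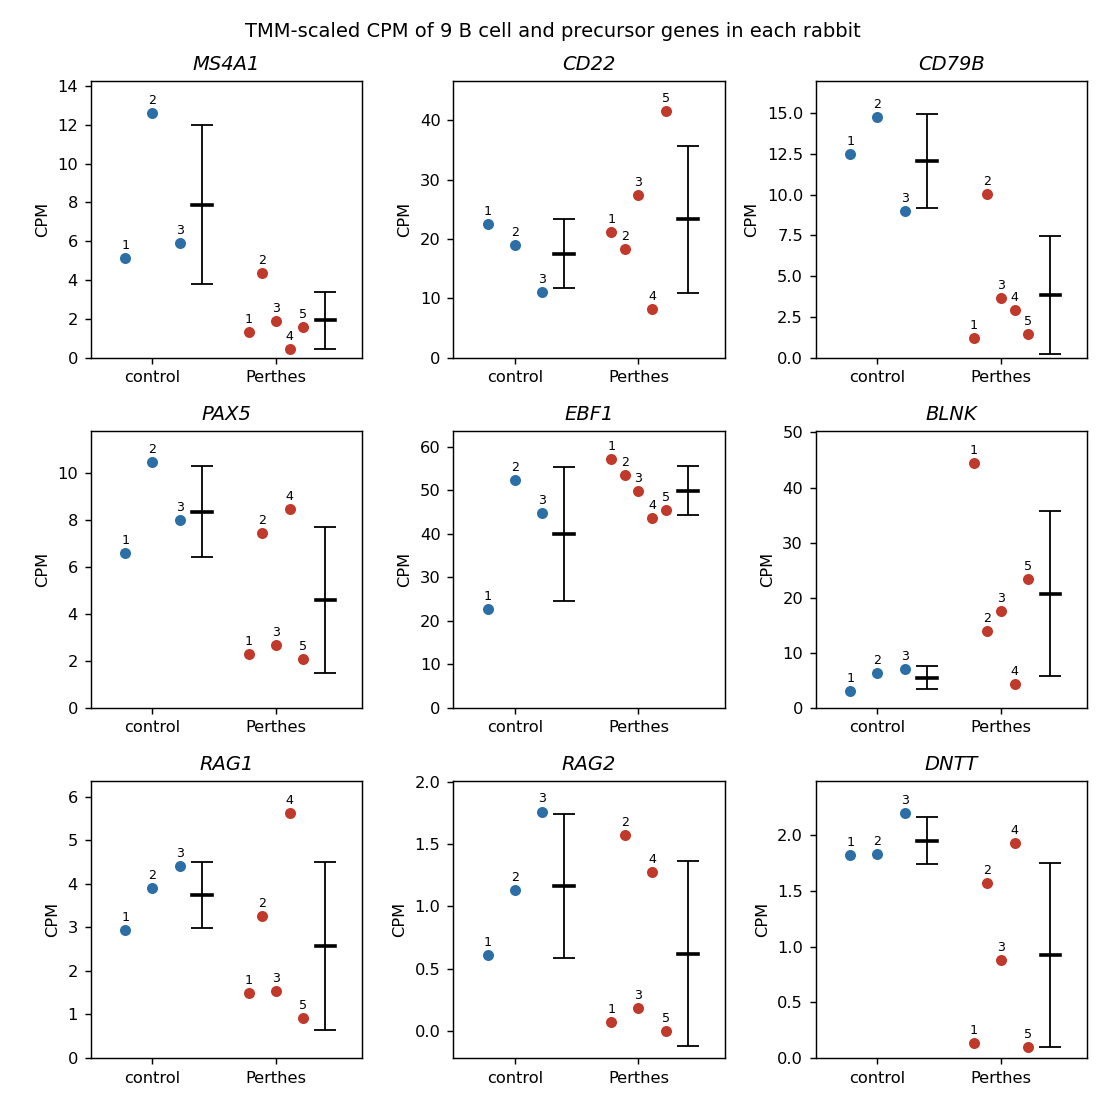
CPM of each of the 9 genes (vertical axes, linear, 1 scale per gene) in the control rabbits (blue, n = 3) and Perthes rabbits (red, n = 5). Points are rabbits with their numbers, and the bar and whiskers to the right of each group are the mean and SD. For *MS4A1* the highest Perthes rabbit (4.38 CPM) lay below the lowest control (5.15 CPM), and for the other 8 genes the groups overlapped.

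**Figure D2:**
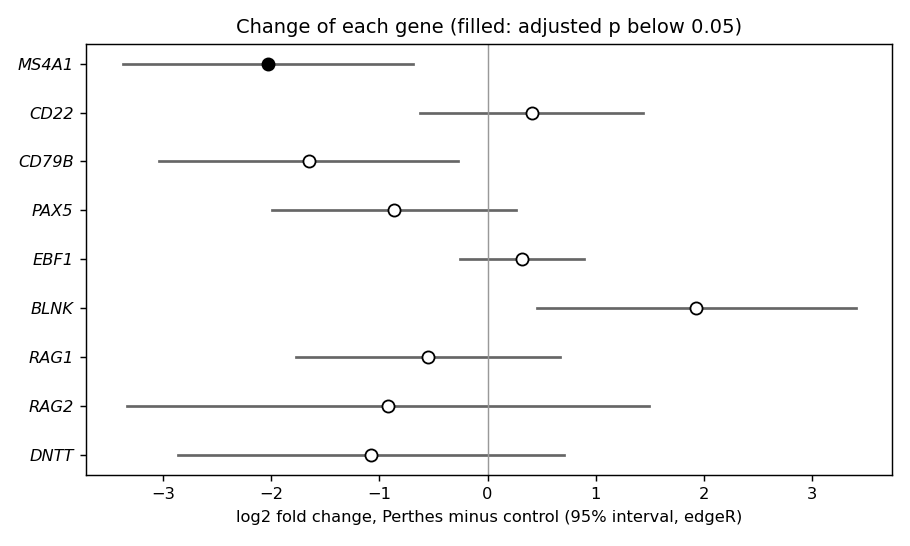
Log2 fold change of each gene, Perthes minus control (horizontal axis), with its 95% interval from edgeR. The filled point is the gene with an adjusted p below 0.05, *MS4A1* at -2.03, and open points are genes that did not pass.

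Of the 3 surface receptors of B cells, *MS4A1* was lower in Perthes rabbits, and *CD79B* and *CD22* did not pass the test. *MS4A1* (gene 100357719), the CD20 antigen, had 39, 117, 52, 12 and 47 counts across Perthes rabbits 1 to 5, against 144, 357 and 177 counts across the controls. Every Perthes rabbit was below every control, a separation in that direction that 13.9% of all tested genes also showed. The means were 1.93 ± 1.48 CPM (n = 5, SD) and 7.87 ± 4.10 CPM (n = 3, SD), a log2 fold change of -2.03 (edgeR adjusted p = 0.04999, standard error or SE 0.59). The direction was the same without any single rabbit, with values from -2.58 to -1.52. The call lay at the threshold and was lost without Perthes rabbit 1, 3 or 5 (adjusted p of 0.0896, 0.102 and 0.110 from edgeR) and without control 1, 2 or 3 (0.0944, 0.205 and 0.0676).

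*CD79B* (gene 100350284), the signaling chain of the B cell receptor, had 36, 268, 99, 81 and 42 counts across Perthes rabbits 1 to 5, against 349, 419 and 271 counts across the controls. Perthes rabbit 2 reached 10.04 CPM and overlapped the lowest control at 9.01 CPM, whereas the other 4 Perthes rabbits lay between 1.22 and 3.64 CPM. The means were 3.85 ± 3.60 CPM (n = 5, SD) and 12.1 ± 2.90 CPM (n = 3, SD), and the log2 fold change of -1.65 (edgeR adjusted p = 0.0994, SE 0.61) did not pass the threshold. Without Perthes rabbit 2 it was -2.39 with an adjusted p of 0.00675 from edgeR, and in DESeq2 with all rabbits it was -1.66 with an adjusted p of 0.0358.

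*CD22* (gene 100351207), the inhibitory lectin receptor, had 626, 487, 746, 225 and 1220 counts in the Perthes rabbits and 630, 540 and 334 in the controls. The controls fell inside the range of the Perthes rabbits, which spanned 8.19 CPM in rabbit 4 to 41.5 CPM in rabbit 5. The log2 fold change was 0.41 (95% interval -0.62 to 1.44, SE 0.46, edgeR adjusted p = 0.569). Perthes rabbit 5 held the most *CD22* of all 8 rabbits and less *MS4A1* than any control.

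The lineage factor *PAX5* (gene 100351373) had 68, 199, 73, 233 and 61 counts in the Perthes rabbits and 185, 297 and 241 in the controls. Perthes rabbits 2 and 4, at 7.45 and 8.48 CPM, lay within the control range of 6.61 to 10.5 CPM, and rabbits 1, 3 and 5 lay below it at 2.08 to 2.68 CPM. The log2 fold change was -0.86 (95% interval -1.99 to 0.26, SE 0.50, edgeR adjusted p = 0.266). The means were 4.60 ± 3.10 CPM (n = 5, SD) in Perthes rabbits and 8.37 ± 1.96 CPM (n = 3, SD) in controls.

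*EBF1* (gene 100354013), the other commitment factor, varied least between Perthes rabbits on the log2 scale. Its counts were 1694, 1432, 1359, 1202 and 1334 in Perthes rabbits 1 to 5 and 639, 1489 and 1350 in the controls, of which control 1 alone was low. The means were 49.97 ± 5.60 CPM (n = 5, SD) and 40.1 ± 15.4 CPM (n = 3, SD), with a log2 fold change of 0.32 (95% interval -0.25 to 0.89, SE 0.25, edgeR adjusted p = 0.418). Without control 1 the value was 0.04. Genes of marrow stroma and adipocytes, where *EBF1* is also expressed, were not called in either direction. In edgeR 0 of 10 tested passed, with 1 lower and 0 higher at an unadjusted p below 0.05, and in DESeq2 0 passed. Their summed level ranged from 778 to 2692 CPM in Perthes rabbits and from 1279 to 2659 CPM in controls. The part of stroma and adipocytes in the value of *EBF1* was not tested.

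*BLNK* (gene 100354716), the adaptor between the B cell receptor and its downstream enzymes, had the largest positive value of the 9. Its counts were 1316, 371, 478, 119 and 689 in the Perthes rabbits and 86, 178 and 210 in the controls. Rabbits 1, 2, 3 and 5 were above all controls, at 13.9 to 44.5 CPM against 3.07 to 6.98 CPM, and rabbit 4 was among the controls at 4.33 CPM. The log2 fold change was 1.93 (95% interval 0.45 to 3.40, SE 0.65, edgeR adjusted p = 0.0770). Without Perthes rabbit 4 it was 2.19 with an adjusted p of 0.0198 from edgeR, and DESeq2 gave 1.93 with an adjusted p of 0.00911 over all rabbits.

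Macrophage genes moved beside *BLNK*. Of 8 macrophage genes tested, 3 were higher and 1 lower at an adjusted p below 0.05 in edgeR. *CD68* rose by 2.02 and *CSF1R* by 1.07 on the log2 scale, and the complement gene *C1QC*, chosen after its value was seen, fell by 2.09. Their summed level was 1520, 879, 1130, 444 and 1369 CPM in Perthes rabbits 1 to 5 and 612, 551 and 499 CPM in the controls, and none of the 8 was at 0 in all libraries. The 4 Perthes rabbits with the most *BLNK* came in the same order for the macrophage sum, and rabbit 4 was the lowest of all rabbits for that sum and the lowest Perthes rabbit for *BLNK*. The controls came in the reverse order, since control 1 had the highest control sum and the lowest *BLNK* of all 8 rabbits, and control 3 the lowest control sum and the highest control *BLNK*. *CD22* also had its 2 lowest values, in Perthes rabbit 4 and control 3, where the macrophage sum was lowest. The part of macrophages in the values of *BLNK* and *CD22* was not tested.

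**Figure D3:**
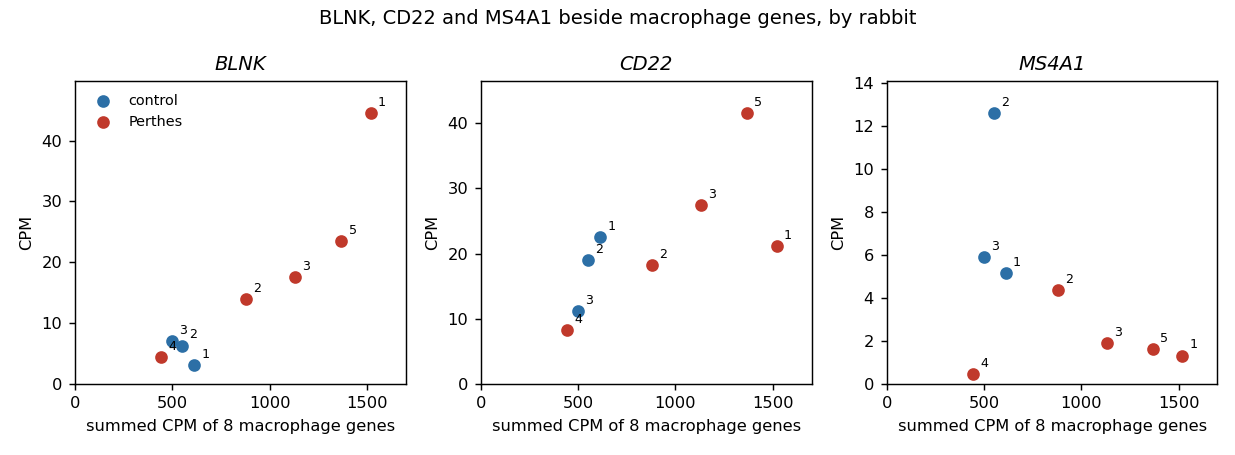
CPM of *BLNK*, *CD22* and *MS4A1* (vertical axes) against the summed CPM of 8 macrophage genes (horizontal axes) in 3 control rabbits (blue) and 5 Perthes rabbits (red), with rabbit numbers. Perthes rabbit 1 is highest on both measures for *BLNK* (44.5 CPM at a sum of 1520 CPM), whereas *MS4A1* is below 2 CPM in the 3 rabbits with the highest sums and also in the rabbit with the lowest sum, Perthes rabbit 4 (0.437 CPM at a sum of 444 CPM).

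The genes of V(D)J recombination, which mark precursors rather than mature B cells, were at control levels in some Perthes rabbits and scarce in others. None of the 3 was called by edgeR or DESeq2, and 0 had an unadjusted p below 0.05 in edgeR. *RAG1* (gene 100328950), which carries the catalytic part of the recombinase, had 44, 87, 42, 155 and 27 counts across Perthes rabbits 1 to 5, against 82, 111 and 133 counts across the controls. Perthes rabbit 4 was the highest of all 8 rabbits at 5.64 CPM, rabbit 2 lay among the controls, and the remaining 3 were below them. The log2 fold change was -0.55 (95% interval -1.77 to 0.67, SE 0.54, edgeR adjusted p = 0.514).

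*RAG2* (gene 100328951), the regulatory partner of RAG1, had 2, 42, 5, 35 and 0 counts in the Perthes rabbits and 17, 32 and 53 in the controls. The 0 counts of Perthes rabbit 5 allow up to 0.102 CPM, the level of 3 counts, and the 2 counts of rabbit 1 lie under that floor as well, whereas rabbits 2 and 4 were at 1.57 and 1.27 CPM within the control range of 0.607 to 1.76 CPM. These limits cover counting error only. The log2 fold change was -0.92 (95% interval -3.33 to 1.49, SE 1.07, edgeR adjusted p = 0.587), the widest interval of the 9.

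*DNTT* (gene 100353958), the template-independent polymerase, had 4, 42, 24, 53 and 3 counts in the Perthes rabbits and 51, 52 and 66 in the controls. The controls agreed closely, at 1.95 ± 0.212 CPM (n = 3, SD), while the Perthes rabbits spread from 0.102 CPM in rabbit 5 to 1.93 CPM in rabbit 4 (0.924 ± 0.826 CPM, n = 5, SD). The log2 fold change was -1.08 (95% interval -2.86 to 0.70, SE 0.79, edgeR adjusted p = 0.379). Perthes rabbit 5 had the lowest value of all rabbits for *PAX5*, *RAG1*, *RAG2* and *DNTT*, and rabbit 1 was next lowest for each of them.

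Markers of other marrow lineages were also low in these rabbits. The summed CPM of 7 neutrophil genes was 22.7 and 170 in Perthes rabbits 1 and 5, 595 in rabbit 3, 1490 in rabbit 4 and 1584 in rabbit 2, against 5203 to 19620 in the controls. The 7 erythroid genes summed to 32.5 and 77.6 CPM in rabbits 1 and 5 and to 390 to 2260 CPM in the other Perthes rabbits, against 4817 to 5450 CPM in the controls. In edgeR, 2 of the 7 neutrophil genes and 1 of the 7 erythroid genes passed the threshold, all lower, and no gene of either list was at 0 in all libraries. At an unadjusted p below 0.05 all 7 of each list were lower. *PTCRA*, the pre-T cell receptor chain, named after its value was seen, had at most 1 count in any library. It was listed here as a plasmacytoid dendritic cell gene and is also a marker of T cell precursors, which use RAG1, RAG2 and DNTT as well. The part of T cell precursors in the values of *RAG1*, *RAG2* and *DNTT* was not tested. Nor was the part of the marrow cell content of a library in the values of the precursor genes tested.

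The profile of each gene across the 8 rabbits was compared with all others by the root mean square difference between log2 CPM values centered on their mean. This measure describes likeness over 8 libraries in 2 groups and carries no test. Among 12309 other named genes, the closest to *CD79B* was *CXCR5*, the follicular homing receptor of B cells (difference 0.154). The gene closest to *PAX5* was *RAG1* (0.279), and the next was *BACH2*, a repressor expressed in B cells (0.280). For *RAG2* the closest gene was *DNTT* (0.603). The neighbors of *BLNK* were *SHTN1* and *PCBD1* (0.200 and 0.255) and those of *EBF1* were *TMEM64* and *SORBS2* (0.0719 and 0.0732), none of them a member. For *CD22* they were *TMPPE* and *SLC6A16* (0.203 and 0.206), and for *MS4A1* they were *HCAR1* and *CD300LG* (0.347 and 0.434). After *PAX5*, *RAG1* was closest to *ZFPM2* and *LIFR* (0.358 and 0.382). The first named genes outside the set were *GRIP1* and *REEP1* for *RAG2* (0.695 and 0.697) and *DNAH2* and *GCSAML* for *DNTT* (0.465 and 0.494).

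**Figure D4:**
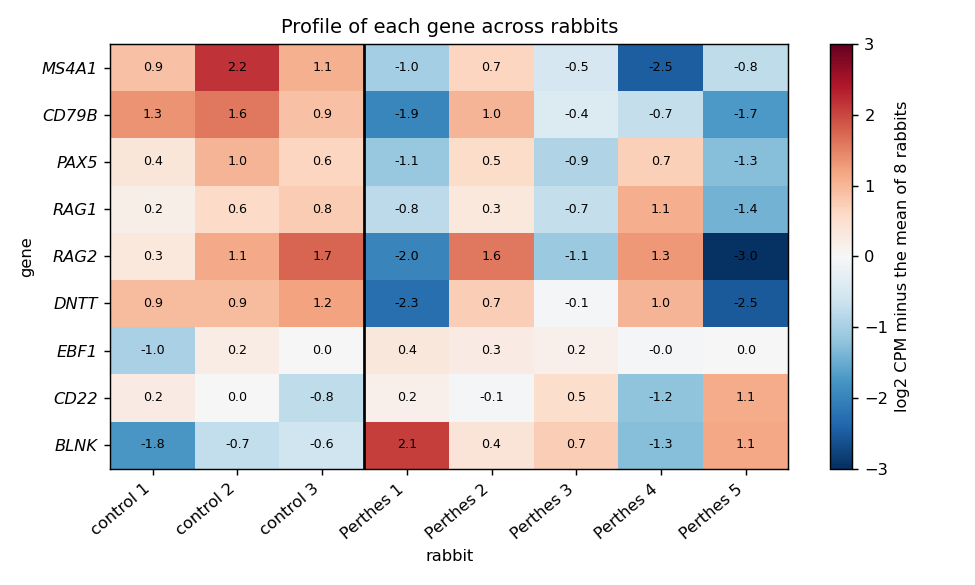
Heatmap of log2 CPM minus the mean of 8 rabbits (color, red above and blue below, with the value in each cell) for the 9 genes (rows) in control and Perthes rabbits (columns, divided by a line). *RAG2* falls to -2.96 in Perthes rabbit 5 and *BLNK* rises to 2.07 in Perthes rabbit 1, whereas *EBF1* stays between -0.04 and 0.35 in the Perthes rabbits.

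Ratios of counts within a library do not depend on the scaling between libraries. Perthes rabbit 4 had 5.15 counts of *MS4A1* per 100 counts of *PAX5*. The other Perthes rabbits had 57.4 to 77.0 and the controls 73.4 to 120. This rabbit had the lowest *MS4A1* of all 8, while its *PAX5* and *RAG2* lay within the control ranges, its *RAG1* above them, and its *DNTT*, at 1.93 CPM, within the control range of 1.82 to 2.20 CPM. *RAG2* stood at 48.3 and 22.6 counts per 100 counts of *RAG1* in Perthes rabbits 2 and 4 and at 20.7 to 39.9 in the controls, but at 4.55, 11.9 and 0 in Perthes rabbits 1, 3 and 5. *RAG1* ranged less relative to *PAX5*, from 43.7 to 66.5 counts per 100 in the Perthes rabbits and from 37.4 to 55.2 in the controls. *RAG1* and *RAG2* are adjacent protein-coding genes in the RefSeq annotation of the rabbit assembly mOryCun1.1, in which all 9 members were matched by gene ID. *DNTT* and *BLNK* are adjacent there as well, although their fold changes had opposite signs.

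The rest of the B lineage pathway was followed in 8 lists of genes, with 96 different genes tested, members included. In edgeR 14 of them were lower and 6 higher at an adjusted p below 0.05, where 8.86% of all tested genes were lower and 6.21% higher. All 20 kept their direction without any single rabbit. Without control 2 edgeR called 0 genes in the whole table (2098 lower and 1624 higher at an unadjusted p below 0.05), so that all 20 calls were lost, with adjusted p-values of the 20 reaching 0.205 over these fits. Without control 1 only *CXCR4* and *SDC1* stayed called, and these were called in 7 of the 8 fits. Leaving out control 1 also took *PIK3CD* to -1.02 and *IL2RG* to -0.71 on the log2 scale. *BCL11A* reached -3.36 without Perthes rabbit 2, *IL7R* 2.38 without Perthes rabbit 1 and *CCL19* 2.94 without control 3.

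In the list of the B cell receptor and its coreceptors, 1 of 14 genes was lower (*MS4A1*) and 0 were higher in edgeR (6 lower and 1 higher at an unadjusted p below 0.05, and 3 lower and 1 higher in DESeq2), and the median log2 fold change was -0.98, against 0.02 over all genes tested. *CD79A*, the partner chain of CD79B, and *TCF3*, an early lineage factor, were sought by symbol but not found among the genes listed. They therefore have no value here. Of the pre-B cell receptor genes, 0 of 3 tested were called in edgeR or DESeq2, 1 was lower at an unadjusted p below 0.05 in edgeR, and their median was -1.63. At most 10 counts of *VPREB1*, a surrogate light chain gene, were present in any library, and the low-count filter removed it from the reported edgeR fit. The symbol *IGLL1*, another surrogate light chain gene, is given to 2 table genes, and the split of reads between them is uncertain. They had 9, 174, 97, 157 and 2 counts and 0, 32, 24, 37 and 0 counts in Perthes rabbits 1 to 5, against 154, 228 and 205 and 34, 82 and 67 in the controls, with rabbits 1 and 5 again the lowest.

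Of 20 signaling genes downstream of the receptor, 4 were lower and 1 higher (7 lower and 2 higher at an unadjusted p below 0.05), with a median of -0.46. *PRKCB*, a protein kinase C, fell by 2.00 on the log2 scale (edgeR adjusted p = 0.0128, SE 0.33), from 68.98 ± 17.65 CPM (n = 3, SD) to 17.2 ± 7.87 CPM (n = 5, SD). *PIK3CD*, the leukocyte phosphoinositide 3-kinase, and *BTK*, the Bruton tyrosine kinase, fell by 1.75 and 1.34 (adjusted p of 0.0245 and 0.0185 from edgeR). *FYN*, a Src family kinase of many tissues, rose by 0.96 (adjusted p = 0.0446 from edgeR). *PIK3CD*, *BTK* and *PRKCB* are also expressed in myeloid cells, whose part in these values was not tested. Of the myeloid lists, 2 of 7 neutrophil genes were called lower, and the macrophage list had 3 of 8 higher and 1 lower.

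Among 17 transcription factors of the lineage, 4 were lower and 1 higher, with a median of 0.02. *BCL11A*, which early lymphoid progenitors need, fell by 2.62 on the log2 scale (edgeR adjusted p = 0.0228, SE 0.60). It had 36.3 ± 2.45 CPM (n = 3, SD) in controls and 5.92 ± 5.53 CPM (n = 5, SD) in Perthes rabbits, of which rabbit 2 was the highest. The call was lost without Perthes rabbit 3 or 5 and without control 1 or 2. *IKZF1* and *IKZF3*, which encode Ikaros and Aiolos, fell by 1.80 and 1.34 (adjusted p of 0.0170 and 0.0298 from edgeR). The part of cells outside the B lineage in the values of *IKZF1* and *IKZF3* was not tested. *ERG*, which is also an endothelial gene, fell by 0.59 (adjusted p = 0.0359 from edgeR). *LEF1*, a Wnt effector used by progenitors and by many other tissues, rose by 1.28 (0.0359).

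The growth signals of early lymphoid cells went both ways. *IL7R* (gene 100343726), the receptor chain for interleukin 7, rose by 3.01 on the log2 scale (edgeR adjusted p = 0.0297, SE 0.75). Its counts were 5077, 844, 2085, 399 and 1794 in the Perthes rabbits and 168, 267 and 330 in the controls, and the groups did not overlap, as for 11.2% of all tested genes in this direction. *IL2RG*, the shared chain that pairs with it, fell by 1.101 (adjusted p = 0.0233 from edgeR), and *CXCR4*, which holds precursors in the marrow, fell by 1.40 (0.0136). The list had 2 lower and 1 higher of 11 tested and a median of -0.07. The macrophage sum was highest in the same rabbit as *IL7R*, Perthes rabbit 1. It was lowest of the Perthes rabbits in rabbit 4, which also had the least *IL7R* of that group. Perthes rabbit 3 had more *IL7R* than rabbit 5 but a lower macrophage sum. Across controls 1 to 3 the order was reversed. There *IL7R* was at 6.002, 9.415 and 10.98 CPM, and the macrophage sum at 612, 551 and 499 CPM. Perthes rabbit 4 had a macrophage sum of 444 CPM, below every control, but more *IL7R* than any control, at 14.52 CPM. The part of other cell types in the value of *IL7R* was not tested.

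The general machinery of V(D)J cleavage and end joining had 1 of 14 genes lower and 0 higher in edgeR (4 lower and 0 higher at an unadjusted p below 0.05, and 3 and 0 in DESeq2) and a median of -0.44. The gene called was *HMGB2*, a chromatin protein that assists the recombinase and is abundant in dividing cells, which fell from 124 ± 4.39 CPM (n = 3, SD) to 20.8 ± 13.8 CPM (n = 5, SD), a log2 fold change of -2.58 (edgeR adjusted p = 0.0137, SE 0.48). In the germinal center and plasma cell list, 1 gene was lower and 2 higher of 10 tested, with a median of -0.48. *CD27*, a memory B cell and T cell receptor, fell by 1.33 (adjusted p = 0.0442 from edgeR), while *PRDM1* and *SDC1*, which mark plasma cells and are also expressed in other tissues, rose by 0.81 and 1.51 (0.0265 and 0.0118). These were the only 2 positive values of the list, and 8 were negative. *DERL3*, *MZB1*, *TNFRSF17* and *JCHAIN*, plasma cell genes named after their values were seen, were at -1.31, -0.90, -0.57 and -0.04. None of them was called in edgeR. Of the survival and homing genes, 1 was lower and 1 higher of 8 tested, with a median of 0.60. *CCL19*, a chemokine that attracts lymphocytes, rose by 2.03 (adjusted p = 0.0487 from edgeR) from at most 8 counts in a control library.

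**Figure D5:**
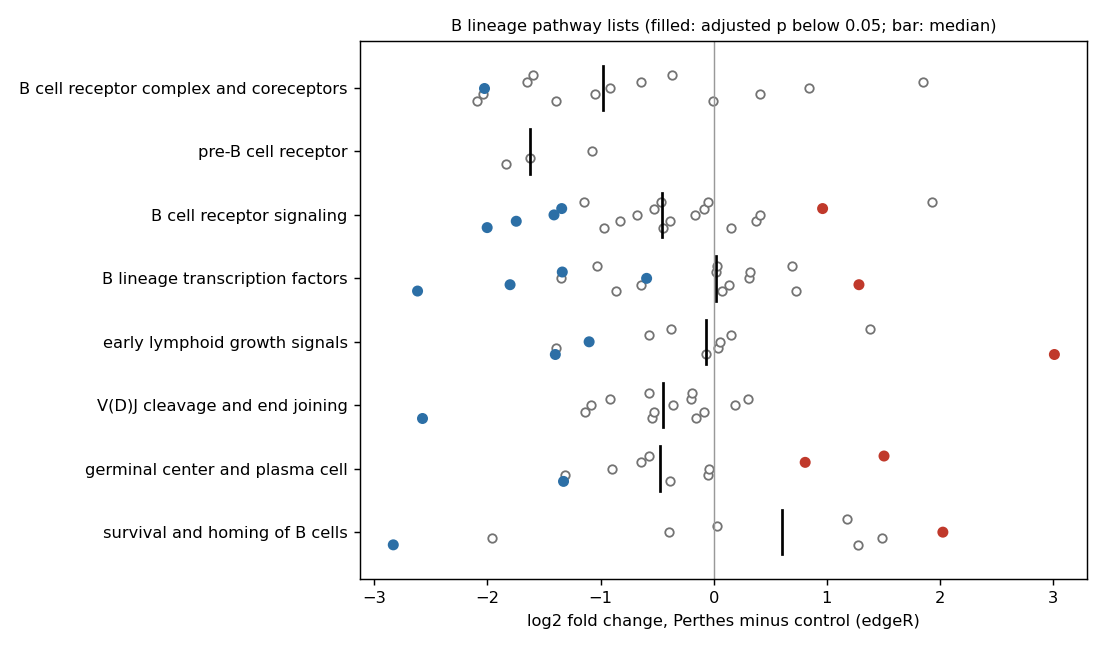
Log2 fold change, Perthes minus control (horizontal axis), of the tested genes in each of 8 B lineage lists (rows). Filled points passed an adjusted p below 0.05 in edgeR (blue lower, red higher), open points did not, and the bar is the median of the list, from -1.63 for the pre-B cell receptor to 0.60 for survival and homing.

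Markers of the other cell types were counted in the same edgeR fit. T cell genes were called in 1 of 11 tests (*CD28*, 3.31 higher on the log2 scale), and their median was -0.67. Natural killer cell genes had 1 of 3 lower and a median of -1.71, and plasmacytoid dendritic cell genes 0 of 5 called (1 lower and 1 higher at an unadjusted p below 0.05, and 1 higher in DESeq2) and a median of 0.13. Basophil and mast cell genes had 2 of 5 lower and a median of -2.34, and megakaryocyte genes 2 of 4 lower and a median of -3.07. The medians of the neutrophil, erythroid and macrophage lists were -3.70, -3.07 and 1.17. The endothelial list had 1 of 8 lower and a median of -0.30. The lists for stroma and adipocytes, osteoblasts and osteocytes, chondrocytes and skeletal muscle had no call among 10, 9, 11 and 2 genes, with medians of 0.12, 0.06, 0.96 and -1.48. At an unadjusted p below 0.05, 2 bone genes were higher, 3 cartilage genes were higher and 1 lower, and 1 muscle gene was lower, and DESeq2 called 1 of these lists' genes, a bone gene. Pan-leukocyte genes had 1 of 5 lower (*CORO1A*) and a median of -0.03, and their summed level ranged from 510 to 1524 CPM in Perthes rabbits and from 824 to 1730 CPM in controls. Relative to that sum, *MS4A1* stood at 0.297% to 1.43% in the controls and at 0.0856% to 0.532% in the Perthes rabbits, ranges that overlap (exact two-sided permutation p = 0.0714, where 0.0357 is the smallest p the design allows). *BLNK*, on the same scale, stood at 0.178% to 0.847% in the controls and at 0.849% to 2.92% in the Perthes rabbits, which do not overlap by a narrow margin (exact two-sided permutation p = 0.0357). After Benjamini-Hochberg adjustment over the 9 members, the permutation p of *MS4A1* and of *BLNK* was 0.321. With 0.0357 as the smallest p, a gene could not pass this adjustment on its own, so that it decides nothing for either gene. How many of all genes separate on this scale was not counted. The other 7 members had exact permutation p-values of 0.107 to 0.536. This scale was chosen after seeing the data.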

How the data were processed

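Total RNA of femoral heads was sequenced after ribosomal RNA removal with a directional kit, and the authors deposited a gene table of expected counts per library, which are not whole for 10.0% to 10.7% of values. The submitters' processing notes name HISAT2 2.0.4, RSEM 1.1.17 and HTSeq 1.99.2, and the strand setting of the counting is not given in the sources used here. A further 8 per-sample columns were identical to those used and were left out, as were the authors' own comparison columns and the small RNA libraries. Expected counts were rounded and tested with edgeR 4.0.16 in R 4.3.3 (filterByExpr, TMM, quasi-likelihood F test, Benjamini-Hochberg adjustment over 15305 genes), with DESeq2 1.42.0 as an alternative. Scripts were tested on simulated data. Log2 CPM used a prior count of 2. Rabbits were grouped by their labels, and the study describes 5 and 3 separate rabbits. The titles of 2 controls give the same replicate number, and their sample codes, which differ, were used to number them. Alternatives were other scalings, count filters, DESeq2, a replicate block and leaving out each rabbit.

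The members, the 8 pathway lists and the 14 marker lists were chosen with earlier results of these data known. The text names all members, the called genes of each pathway list (up to 6) with *CD79A*, *VPREB1*, *IL7R* and *TCF3*, from the 2 most abundant genes of each marker list those beside a result, and the 2 genes nearest to each member in profile. Some genes that this rule names are not reported here. Depth is 26757087 to 29461482 counts per library, and 3 counts were taken as the floor. Levels were not tested between genes. Transcript lengths were not used here, so that sums of CPM, count ratios between genes and rankings by abundance also depend on transcript length. *MS4A1*, *EBF1* and *BLNK* are overlapped by non-coding genes in mOryCun1.1, and reads of these pairs may not be separable.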

Additional observations from a re-analysis of the deposited data

Results flagged for a closer look

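The *CD79B* level of Perthes rabbit 2, 10.04 CPM, stood apart from the other 4 Perthes rabbits (1.22 to 3.64 CPM). Its gap to the nearest of them was 0.726 of the group's range, above Dixon's 95% critical value of 0.710 for 5 samples. Only the 9 genes in the Perthes group were examined this way, and chance flags about 1 in 20 such groups. The same rabbit had 268 counts of *CD79B*, and it was the highest of the Perthes rabbits for *MS4A1* (4.38 CPM) as well.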

How the results depend on the processing

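All 133 fitted values of the 9 genes, the reported ones included, had the direction of the reported one. *MS4A1* was not called without the low-count filter (log2 fold change -2.02, adjusted p = 0.0537 from edgeR). Relative to summed pan-leukocyte genes it was at -2.08, an alternative chosen after seeing the data. There a gene could not pass the adjusted permutation test on its own. The count of members lower, 1 as reported, was 2 in DESeq2, 0 without the low-count filter, 0 under the study's thresholds in DESeq2 and 0 to 2 when 1 rabbit was left out. The count higher, 0 as reported, was 1 in DESeq2 and 0 to 1 with a rabbit left out. Over all genes, 1356 were lower and 951 higher. DESeq2 called 1917 lower and 1700 higher, and the study's thresholds 95 lower and 101 higher. Leaving out a rabbit gave 0 to 1628 lower and 0 to 1267 higher. Scaling by library totals alone gave 1705 lower and 678 higher and moved the median of all genes from 0.02 to -0.06. *RAG2* and *DNTT* have no value with at least 10 counts in every sample. The cause of these differences was not tested.

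DESeq2 called 3 lower and 1 higher in the receptor list, 7 and 2 in signaling, 2 higher among transcription factors, 3 lower in V(D)J joining, 2 lower in the germinal center list, and 2 lower and 3 higher in survival and homing. Under library totals alone 2 receptor genes were lower, 0 signaling genes higher, 2 germinal center genes lower and 1 higher, and 0 survival genes higher. Rabbits of the groups share only a replicate number, and the third control carries replicate number 2 in its title but 3 in its sample code, which was used: deviations of same-numbered rabbits correlated at -0.317, 0.161 and -0.238. Fitted with that number as a replicate block, edgeR called 0 members, 0 genes of each pathway list and 0 genes of the table. At an unadjusted p below 0.05 this edgeR fit had 1648 genes lower and 1504 higher, and *MS4A1* was at -1.70. No control carries the numbers of Perthes rabbits 4 and 5, so that these rabbits add nothing to the group difference in this fit. The block also leaves little from which to estimate the spread, so that its lack of calls does not decide whether the reported calls hold.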
